A study of Mus musculus with 11 samples.

Results

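Mx1+Ocn- periosteal skeletal stem cells (P-SSCs) were set against CD45+ hematopoietic cells of the bone marrow, 4 of the 11 arrays of a study of 6 sorted mouse cell populations. The members were the 2 arrays whose titles name Mx1+Ocn- P-SSCs and the 2 arrays whose titles name CD45+ cells from bone marrow, each as sample 1 and sample 2. The study used the blood cells as a control population when it sought genes that mark skeletal stem cells. The P-SSCs were those of mice carrying Mx1-Cre, Rosa-Tomato and Osteocalcin-GFP, lethally irradiated at about a month of age, given wild-type C57BL/6 marrow and later injected with pIpC, which induces interferon and so switches on the interferon-responsive Mx1 promoter that drives Cre. Periosteum of femurs, tibias, pelvis and calvaria was peeled off and digested with collagenase, and cells were sorted as CD45-CD31-Ter119-, CD105+CD140a+, Tomato+ and without Osteocalcin-GFP. The labels give the CD45+ cells only as marrow cells of the hematopoietic lineage, not the genotype, age or treatment of their mice. Cells of a few male and female mice went into the RNA, the study calls its arrays biological repeats, and no source says that samples 1 and 2 are of separate mice, so the p-values below measure the spread between arrays, which may in part be technical. Tomato marks every cell in which Mx1-Cre was once active, and Mx1-Cre also acts in blood cells.

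Skeletal stem cells are the stromal cells of bone that renew themselves and give rise to bone, cartilage and marrow stroma, and those of the periosteum, the membrane on the outer bone surface, take a large part in fracture repair. They are sorted by the absence of CD45 (Ptprc), a tyrosine phosphatase carried by nearly all nucleated blood cells, of the endothelial protein CD31 (Pecam1) and of the erythroid antigen Ter119, and by the presence of CD105 (Eng, a co-receptor for TGF-beta) and CD140a (Pdgfra, a receptor for PDGF). CD45+ marrow is a mixture of neutrophils and their precursors, monocytes, B and T cells, basophils, eosinophils and blood progenitors. In such bulk samples, fewer cells of a type and less RNA per cell cannot be told apart.

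Values are log2 array values as deposited, so a difference of 1 is 2-fold, and wherever 2 values of a population are given they are those of sample 1 and sample 2. The P-SSC arrays were unlike each other: they correlated at r = 0.456 over all probe sets, whereas the CD45+ arrays correlated at 0.995, and P-SSC sample 1 was closer to sample 1 of the marrow stem cells (Mx1+Nes+ BM-SSCs, r = 0.971) than to its own repeat. On P-SSC sample 2 the values were squeezed together, with a 10th percentile of 3.36 and a 90th of 6.67. These were 2.72 and 7.94 on P-SSC sample 1, and 2.50 to 2.53 and 8.43 to 8.46 on the CD45+ arrays. The median over all probe sets was 4.94 on P-SSC sample 2, against 4.43 on each CD45+ array. A gene dim in CD45+ cells could thus read above them on P-SSC sample 2 and still lie below that median. The genes that every cell uses were low there: the 27 measured ribosomal protein genes had medians of 11.86 and 6.90 in P-SSCs, against 12.80 and 12.90 in CD45+ cells, and the 17 housekeeping genes medians of 11.53 and 6.58 in P-SSCs, against 12.04 and 11.93 in CD45+ cells. A gene that was lower on P-SSC sample 2 therefore stood beside a fall of -5.07 in the median ribosomal gene on the same array, and gene values below are given per array, with the difference and the calls also for sample 1 alone.

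A limma fit with a mean for each of the 6 populations called 9.77% of 45037 probe sets at an adjusted p under 0.05, of which 1119 were higher and 3281 lower in P-SSCs than in CD45+ cells (2.48% and 7.29% of those tested). Counted once per gene, 563 of 18193 genes were higher (3.09%) and 1708 lower (9.39%). With P-SSC sample 1 alone, 1824 probe sets were higher and 3224 lower (4.05% and 7.16%), in all 11.2%, or 1045 and 1577 genes (5.74% and 8.67%). Of the lower probe sets, 2481 were called both with all arrays and with sample 1 alone, 75.6% of the first set and 77% of the second. Of the higher ones 770 were shared, 68.8% of the first set and 42.2% of the second, a smaller overlap than among the lower ones. Arrays that merely did not overlap were common: both P-SSC arrays lay above both CD45+ arrays for 42.6% of probe sets and below them for 29.8%, and the median difference over all probe sets was 0.38 (0.08 for sample 1 alone and 0.59 for sample 2 alone). Scaling moved the balance: after each array was centred on its median, 768 probe sets were higher and 4395 lower, and the median difference was 0.05 (0.12 after quantile normalization). The counts depended on which arrays were kept: 511 probe sets passed without CD45+ sample 1 and 440 without CD45+ sample 2, 25623 passed without P-SSC sample 1, and 0 passed when limma was fitted to the 4 arrays only, with 8678 at an unadjusted p under 0.05. Where several probe sets report 1 gene, the values and calls below are those of its brightest probe set on average. Counts of list members below are to be read beside the shares over all genes, 3.09% higher and 9.39% lower with both arrays. Of all genes 39.4% lay above and 36.2% below the CD45+ values on both P-SSC arrays.

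**Figure D1:**
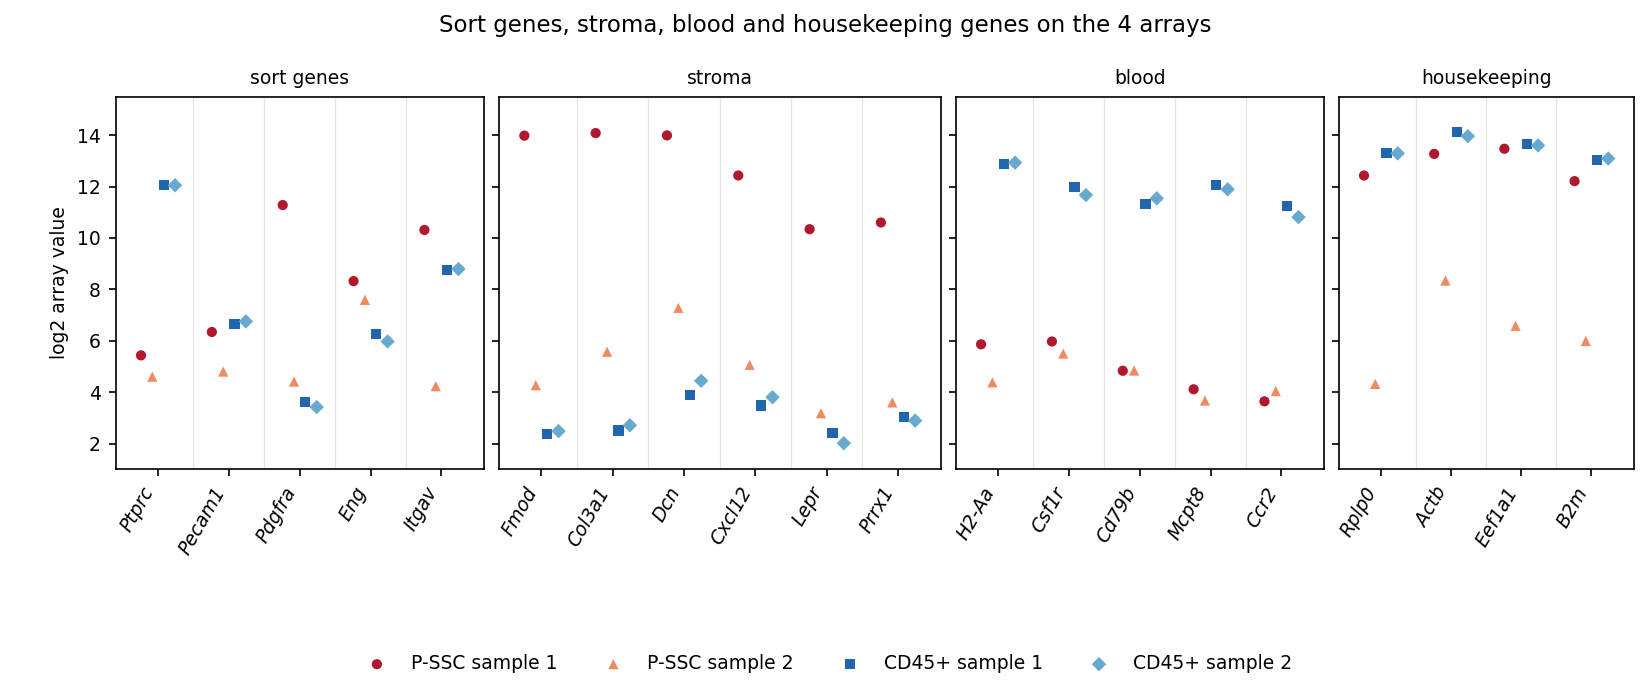
Log2 array values of sort, stromal, blood and housekeeping genes on the 2 P-SSC arrays (circles and triangles) and the 2 CD45+ arrays (squares and diamonds), 1 point per array. Blood genes were low on both P-SSC arrays, whereas stromal genes such as Fmod (13.98 and 4.27) were high on P-SSC sample 1 and housekeeping genes such as Rplp0 (12.43 and 4.32) were low on sample 2.

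Of the genes behind the sort, Ptprc fell and Eng rose with both arrays and for sample 1 alone, Pdgfra rose for sample 1 alone, and Pecam1 and Itgav passed in neither setting. Ptprc, the gene of CD45, read 5.43 and 4.6 in P-SSCs, against 12.06 and 12.05 in CD45+ cells (difference -7.04, SE 0.999, adjusted p = 0.00705, and -6.62 for sample 1 alone, adjusted p = 0.0209). Both P-SSC values were far below both CD45+ values. Pdgfra, the gene of CD140a, read 11.28 and 4.41 in P-SSCs, against 3.62 and 3.42 in CD45+ cells (difference 4.33, SE 2.06, adjusted p = 0.173, and 7.77 for sample 1 alone, adjusted p = 0.0172). Eng, the gene of CD105, read 8.32 and 7.59 in P-SSCs, against 6.27 and 5.97 in CD45+ cells (difference 1.84, SE 0.354, adjusted p = 0.0209, and 2.20 for sample 1 alone, adjusted p = 0.00746). Pdgfra was high on sample 1, 1 log2 unit above the CD45+ arrays on sample 2, and passed only for sample 1 alone, whereas Eng was raised on both arrays. Pecam1, the gene of CD31, read 6.34 and 4.80 in P-SSCs, against 6.64 and 6.75 in CD45+ cells (difference -1.13, SE 0.539, adjusted p = 0.174, and -0.36 for sample 1 alone, adjusted p = 0.695). Itgav, the integrin chain CD51 by which other skeletal stem cells are sorted, read 10.31 and 4.23 in P-SSCs, against 8.75 and 8.79 in CD45+ cells (difference -1.5, SE 1.77, adjusted p = 0.504, and 1.53 for sample 1 alone, adjusted p = 0.477). Both P-SSC values of Pecam1 were below both CD45+ values, by less than 1 unit on sample 1. The P-SSC values of Itgav fell on opposite sides of the CD45+ values, and none of its other probe sets was lower in P-SSCs. Mx1, an antiviral GTPase whose promoter drives the Cre, read 4.09 and 5.70 in P-SSCs, against 7.03 and 6.72 in CD45+ cells (difference -1.98, SE 0.532, adjusted p = 0.057, and -2.78 for sample 1 alone, adjusted p = 0.00619). It was lower on both P-SSC arrays, and the fall passed for sample 1 alone. Osteocalcin (Bglap), whose reporter the sort excluded, was not analysed here.

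Genes of blood cells were lower in P-SSCs. Of 27 genes of the leukocyte surface and cytoskeleton 24 fell, beside 9.39% of all genes, and 25 fell for sample 1 alone. Their median difference was -4.41 on sample 1 and -5.14 on sample 2, beside 0.05 on sample 1 and 0.25 on sample 2 over all genes. On sample 1 that fall stood apart from the ribosomal genes (-0.86), and on sample 2 it did not (-5.07). Coro1a, coronin, which binds actin in leukocytes, read 7.77 and 5.68 in P-SSCs, against 12.27 and 12.19 in CD45+ cells (difference -5.50, SE 0.971, adjusted p = 0.0155, and -4.46 for sample 1 alone, adjusted p = 0.0398). Lcp1, the actin bundler L-plastin, read 7.03 and 4.65 in P-SSCs, against 12.02 and 11.96 in CD45+ cells (difference -6.15, SE 0.952, adjusted p = 0.01, and -4.95 for sample 1 alone, adjusted p = 0.0198). Every P-SSC value of these genes was below every CD45+ value. The beta-2 integrins, which let leukocytes adhere, moved together. Itgb2, the shared beta chain, read 5.98 and 4.63 in P-SSCs, against 11.34 and 11.01 in CD45+ cells (difference -5.87, SE 0.764, adjusted p = 0.00493, and -5.20 for sample 1 alone, adjusted p = 0.0133). Itgal, the alpha chain of LFA-1, read 4.84 and 5.31 in P-SSCs, against 10.98 and 10.96 in CD45+ cells (difference -5.89, SE 0.388, adjusted p = 0.000667, and -6.13 for sample 1 alone, adjusted p = 0.00096). Itgam, the alpha chain of Mac-1, read 3.76 and 4.05 in P-SSCs, against 8.64 and 8.52 in CD45+ cells (difference -4.67, SE 0.322, adjusted p = 0.000763, and -4.81 for sample 1 alone, adjusted p = 0.00096). All 3 fell in both settings, and no P-SSC value reached a CD45+ value. Fermt3, an activator of integrins in blood cells, read 8.73 and 3.89 in P-SSCs, against 11.99 and 12.04 in CD45+ cells (difference -5.71, SE 1.47, adjusted p = 0.0512, and -3.29 for sample 1 alone, adjusted p = 0.0939). It was lower on both P-SSC arrays, more so on sample 2, and the probe set read passed neither with both arrays nor for sample 1 alone, whereas the other 3 probe sets of Fermt3 passed as lower with both arrays.

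Signaling proteins of leukocytes fell in 20 of 26 cases (22 for sample 1 alone), and 1 lay above the CD45+ values on both P-SSC arrays. Their median difference was -3.36 on sample 1 and -2.96 on sample 2, beside -0.86 and -5.07 for the ribosomal genes. The linear values of the list summed to 7470 and 19800 in P-SSCs, against 21100 and 20000 in CD45+ cells, so on sample 2 the sum was near the CD45+ level. Syk, the kinase downstream of B cell and Fc receptors, read 5.05 and 4.03 in P-SSCs, against 9.90 and 9.98 in CD45+ cells (difference -5.40, SE 0.436, adjusted p = 0.00111, and -4.89 for sample 1 alone, adjusted p = 0.00145). Prkcb, a protein kinase C of B cell receptor signaling, read 5.38 and 4.03 in P-SSCs, against 10.66 and 10.61 in CD45+ cells (difference -5.93, SE 0.641, adjusted p = 0.00255, and -5.26 for sample 1 alone, adjusted p = 0.00537). Arhgap15, a brake on Rac, read 4.02 and 4.22 in P-SSCs, against 8.84 and 8.91 in CD45+ cells (difference -4.75, SE 0.452, adjusted p = 0.00166, and -4.85 for sample 1 alone, adjusted p = 0.00355). All 3 had every P-SSC value below every CD45+ value. Of 29 transcription factors of blood lineages 14 fell (12 for sample 1 alone), beside 9.39% and 8.67% of all genes. Irf8, a determinant of the monocyte and dendritic lineages, read 5.15 and 4.15 in P-SSCs, against 11.19 and 10.82 in CD45+ cells (difference -6.35, SE 0.527, adjusted p = 0.0012, and -5.85 for sample 1 alone, adjusted p = 0.00233). Ikzf1, Ikaros, needed for lymphocytes, read 5.83 and 5.01 in P-SSCs, against 10.86 and 10.79 in CD45+ cells (difference -5.41, SE 0.671, adjusted p = 0.00416, and -5.0 for sample 1 alone, adjusted p = 0.0119). Gfi1, a repressor that shapes the neutrophil lineage, read 3.05 and 4.35 in P-SSCs, against 7.99 and 8.52 in CD45+ cells (difference -4.55, SE 0.542, adjusted p = 0.0035, and -5.21 for sample 1 alone, adjusted p = 0.00251). These did not overlap between the populations. Cebpd, a factor of both myeloid cells and adipocytes, read 11.29 and 5.17 in P-SSCs, against 10.29 and 10.49 in CD45+ cells (difference -2.16, SE 1.65, adjusted p = 0.322, and 0.90 for sample 1 alone, adjusted p = 0.482). Its P-SSC sample 1 lay above the CD45+ arrays and its sample 2 below them.

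**Figure D2:**
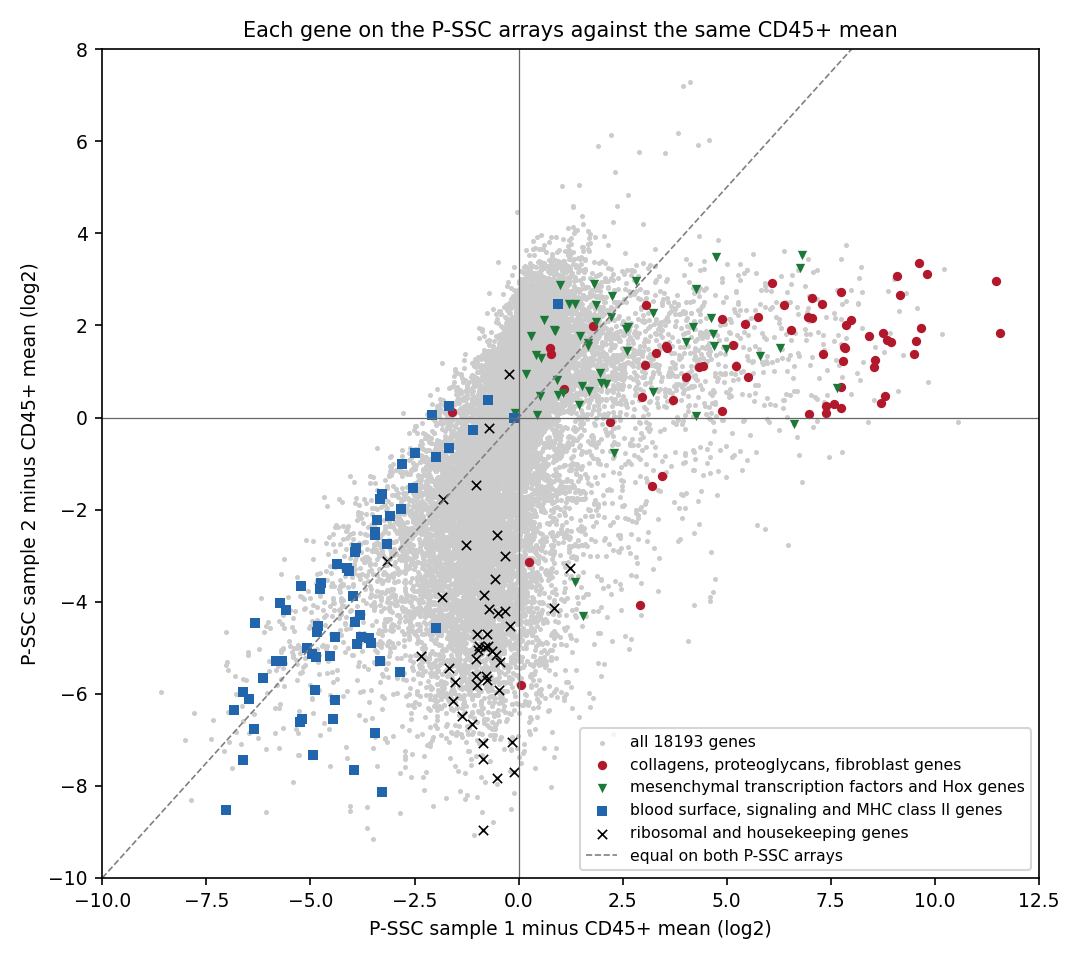
Each point is 1 of 18193 genes, with its P-SSC sample 1 value minus the CD45+ mean on the x axis and its P-SSC sample 2 value minus the same CD45+ mean on the y axis, in log2 units. Matrix genes spread far to the right along x and less upward along y, blood genes lie at the lower left on both axes, and ribosomal and housekeeping genes lie near 0 on x and far down on y.

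MHC class II genes, by which B cells, monocytes and dendritic cells present antigen, fell in 10 of 12 cases (11 for sample 1 alone), at a median of -5.41 on sample 1 and -4.24 on sample 2. Class II promoters carry a box with an inverted CCAAT sequence, the Y box. The files' genes were matched by symbol to RefSeq promoters (GRCm38.p6, 250 bases before to 50 after the gene start), and 7 of the 12 had an entry. Of these 6 held CCAAT and 3 held CTGATTGG, which ends in that inverted CCAAT, on either strand, against 41.1% and 4.7% of all 27025 genes. CCAAT was also in 20 of the 26 promoters with an entry in the cell cycle list, so it was not particular to class II genes. The 3 promoters are shown 5′ to 3′ on the gene's strand because all 3 genes fell, with CTGATTGG in capitals. H2-Aa is at chr17:34287774-34288073, minus strand, H2-Eb1 at chr17:34305617-34305916, plus strand and H2-Oa at chr17:34092129-34092428, plus strand.
H2-Aa: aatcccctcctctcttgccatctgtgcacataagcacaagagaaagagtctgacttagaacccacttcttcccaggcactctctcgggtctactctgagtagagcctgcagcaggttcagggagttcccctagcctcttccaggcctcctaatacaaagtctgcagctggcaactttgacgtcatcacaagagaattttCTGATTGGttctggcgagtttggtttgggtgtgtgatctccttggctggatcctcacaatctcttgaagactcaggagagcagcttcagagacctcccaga
H2-Eb1: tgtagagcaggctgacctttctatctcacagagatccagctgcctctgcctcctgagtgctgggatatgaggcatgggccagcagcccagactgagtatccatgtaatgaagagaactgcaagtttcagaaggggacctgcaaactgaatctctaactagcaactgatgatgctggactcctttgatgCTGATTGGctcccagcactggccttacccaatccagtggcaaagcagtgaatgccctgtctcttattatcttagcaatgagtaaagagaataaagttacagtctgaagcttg
H2-Oa: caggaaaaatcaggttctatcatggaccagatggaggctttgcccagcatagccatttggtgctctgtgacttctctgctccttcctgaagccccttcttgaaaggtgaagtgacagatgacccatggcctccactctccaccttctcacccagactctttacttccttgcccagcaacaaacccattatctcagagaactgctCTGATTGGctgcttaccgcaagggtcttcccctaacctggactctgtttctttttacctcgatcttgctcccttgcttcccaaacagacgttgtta
The capitals begin 51 bases before the gene start in H2-Aa, 62 in H2-Eb1 and 46 in H2-Oa, and a match of letters is not a shown binding site.

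The 3 genes fell with both arrays and for sample 1 alone. H2-Aa, an alpha chain of class II, read 5.86 and 4.38 in P-SSCs, against 12.87 and 12.93 in CD45+ cells (difference -7.78, SE 0.505, adjusted p = 0.000667, and -7.04 for sample 1 alone, adjusted p = 0.000661). H2-Eb1, a beta chain, read 5.32 and 5.68 in P-SSCs, against 11.79 and 11.81 in CD45+ cells (difference -6.30, SE 0.437, adjusted p = 0.000763, and -6.48 for sample 1 alone, adjusted p = 0.00137). H2-Oa, a chain of the peptide-loading regulator H2-O, read 4.11 and 5.51 in P-SSCs, against 9.71 and 9.66 in CD45+ cells (difference -4.88, SE 0.548, adjusted p = 0.00292, and -5.58 for sample 1 alone, adjusted p = 0.00186). No P-SSC value reached a CD45+ value in any of them. Cd74, the invariant chain that guards the peptide groove, read 6.11 and 6.19 in P-SSCs, against 11.19 and 11.20 in CD45+ cells (difference -5.05, SE 0.507, adjusted p = 0.00205, and -5.09 for sample 1 alone, adjusted p = 0.00471). It fell by about the same amount on both arrays. Ciita, the coactivator on which class II transcription depends, read 4.65 and 6.39 in P-SSCs, against 6.89 and 7.42 in CD45+ cells (difference -1.64, SE 0.666, adjusted p = 0.137, and -2.50 for sample 1 alone, adjusted p = 0.0443). Cd80, a co-stimulatory ligand on the same cells, read 4.79 and 4.91 in P-SSCs, against 4.90 and 4.91 in CD45+ cells (difference -0.05, SE 0.286, adjusted p = 0.889, and -0.11 for sample 1 alone, adjusted p = 0.877). The probe set of Ciita passed only for sample 1 alone, whereas its other 2 probe sets passed as lower with both arrays, and Cd80 passed in neither setting.

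Neutrophil genes fell in 20 of 28 cases (19 for sample 1 alone), and all 28 measured had both P-SSC values below both CD45+ values, beside 36.2% of all genes. The same held for 26 of the 27 ribosomal and 15 of the 17 housekeeping genes, so that count does not set neutrophil genes apart. Many myeloid promoters carry a purine-rich site of the GAGGAAGT type, which the blood factor PU.1 binds. Those letters on either strand were in 6 of the 25 list promoters with an entry (Elane, Mpo, Prtn3, S100a8, Mmp8 and Itgb2l), against 3.69% of all genes. Elane (neutrophil elastase) and Mmp8 (neutrophil collagenase) are shown because both fell, with the matching letters in capitals. Elane is at chr10:79886062-79886361, plus strand, and Mmp8 at chr9:7558179-7558478, plus strand, where the match reads on the opposite strand.
Elane: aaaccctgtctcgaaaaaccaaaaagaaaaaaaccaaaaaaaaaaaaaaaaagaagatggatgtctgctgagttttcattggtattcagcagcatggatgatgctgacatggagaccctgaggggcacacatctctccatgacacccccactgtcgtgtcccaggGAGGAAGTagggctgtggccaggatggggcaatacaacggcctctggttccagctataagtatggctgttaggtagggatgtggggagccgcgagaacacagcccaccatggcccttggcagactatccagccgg
Mmp8: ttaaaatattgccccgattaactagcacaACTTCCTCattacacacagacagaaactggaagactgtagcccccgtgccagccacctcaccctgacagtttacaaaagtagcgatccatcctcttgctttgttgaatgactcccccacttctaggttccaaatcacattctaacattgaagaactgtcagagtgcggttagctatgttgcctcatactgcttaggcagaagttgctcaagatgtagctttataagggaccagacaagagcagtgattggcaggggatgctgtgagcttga
Elane read 5.37 and 5.61 in P-SSCs, against 9.41 and 9.73 in CD45+ cells (difference -4.08, SE 0.475, adjusted p = 0.00327, and -4.21 for sample 1 alone, adjusted p = 0.0067). Mmp8 read 5.50 and 6.54 in P-SSCs, against 11.28 and 10.96 in CD45+ cells (difference -5.10, SE 0.439, adjusted p = 0.00128, and -5.63 for sample 1 alone, adjusted p = 0.00096). Itgb2l, a beta integrin of neutrophils, read 5.34 and 6.49 in P-SSCs, against 9.03 and 9.01 in CD45+ cells (difference -3.11, SE 0.425, adjusted p = 0.00608, and -3.68 for sample 1 alone, adjusted p = 0.00184). These 3 fell, although neither of the other 2 probe sets of Itgb2l was lower, and the 3 other genes with the same letters did not pass. Mpo, myeloperoxidase, read 10.29 and 5.77 in P-SSCs, against 12.99 and 13.06 in CD45+ cells (difference -4.99, SE 1.81, adjusted p = 0.113, and -2.73 for sample 1 alone, adjusted p = 0.444). Prtn3, proteinase 3, read 8.95 and 4.15 in P-SSCs, against 12.35 and 12.85 in CD45+ cells (difference -6.05, SE 1.69, adjusted p = 0.063, and -3.65 for sample 1 alone, adjusted p = 0.198). Both were lower on each P-SSC array, more so on sample 2, and passed in neither setting.

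Some granule genes were lower on both P-SSC arrays without passing. S100a8, a chain of calprotectin, read 12.33 and 11.94 in P-SSCs, against 14.19 and 14.17 in CD45+ cells (difference -2.04, SE 0.903, adjusted p = 0.155, and -1.85 for sample 1 alone, adjusted p = 0.412). S100a9, the other chain, read 12.65 and 10.42 in P-SSCs, against 14.68 and 14.72 in CD45+ cells (difference -3.16, SE 1.1, adjusted p = 0.105, and -2.05 for sample 1 alone, adjusted p = 0.385). Ngp, a protein of secondary granules, read 11.67 and 7.87 in P-SSCs, against 13.74 and 13.79 in CD45+ cells (difference -4.0, SE 1.33, adjusted p = 0.0953, and -2.10 for sample 1 alone, adjusted p = 0.35). None of these passed with both arrays or for sample 1 alone, although every P-SSC value was below the CD45+ values. Camp, the antimicrobial cathelicidin, read 10.50 and 8.13 in P-SSCs, against 13.66 and 13.84 in CD45+ cells (difference -4.43, SE 1.17, adjusted p = 0.0542, and -3.25 for sample 1 alone, adjusted p = 0.18). Cd177, a neutrophil surface protein, read 4.17 and 3.03 in P-SSCs, against 10.28 and 10.20 in CD45+ cells (difference -6.64, SE 0.789, adjusted p = 0.0035, and -6.07 for sample 1 alone, adjusted p = 0.0104). Ctsg, cathepsin G, read 7.0 and 4.51 in P-SSCs, against 12.29 and 12.54 in CD45+ cells (difference -6.66, SE 1.2, adjusted p = 0.0169, and -5.41 for sample 1 alone, adjusted p = 0.0459). Cd177 and Ctsg fell in both settings, and Camp passed in neither. Cybb, the catalytic chain of the phagocyte oxidase, read 6.64 and 5.21 in P-SSCs, against 12.43 and 12.36 in CD45+ cells (difference -6.47, SE 0.837, adjusted p = 0.00484, and -5.75 for sample 1 alone, adjusted p = 0.0135). The linear values of the list summed to 23600 and 7160 in P-SSCs, against 147000 and 153000 in CD45+ cells, and the part of this signal in the other P-SSC results was not tested.

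Of 28 monocyte and macrophage genes 18 fell (15 for sample 1 alone). Ctss, a lysosomal protease that trims the invariant chain, read 4.91 and 5.92 in P-SSCs, against 12.98 and 12.87 in CD45+ cells (difference -7.51, SE 0.595, adjusted p = 0.00111, and -8.02 for sample 1 alone, adjusted p = 0.00159). Csf1r, the receptor for M-CSF, read 5.97 and 5.50 in P-SSCs, against 11.97 and 11.67 in CD45+ cells (difference -6.08, SE 0.469, adjusted p = 0.00106, and -5.85 for sample 1 alone, adjusted p = 0.00219). Ccr2, the chemokine receptor that brings monocytes out of marrow, read 3.64 and 4.04 in P-SSCs, against 11.25 and 10.81 in CD45+ cells (difference -7.19, SE 0.406, adjusted p = 0.000637, and -7.38 for sample 1 alone, adjusted p = 0.000749). All P-SSC values of these genes were below all CD45+ values. Of 23 B cell genes 14 fell (15 for sample 1 alone). Cd79b, a signaling chain of the B cell receptor, read 4.83 and 4.84 in P-SSCs, against 11.33 and 11.54 in CD45+ cells (difference -6.60, SE 0.53, adjusted p = 0.00111, and -6.61 for sample 1 alone, adjusted p = 0.00266). Fcmr, a receptor for IgM, read 3.03 and 3.81 in P-SSCs, against 10.28 and 10.48 in CD45+ cells (difference -6.96, SE 0.387, adjusted p = 0.000637, and -7.35 for sample 1 alone, adjusted p = 0.000661). Iglv1, a segment of the lambda light chain with near-identical copies in the genome, read 3.34 and 5.96 in P-SSCs, against 12.28 and 11.59 in CD45+ cells (difference -7.29, SE 0.951, adjusted p = 0.00499, and -8.60 for sample 1 alone, adjusted p = 0.00267). Iglv1 was higher on P-SSC sample 2 than on sample 1 but below the CD45+ arrays on both. Of 21 T and natural killer cell genes 15 fell, and 15 for sample 1 alone. Ccr7, a homing receptor of T cells, read 2.68 and 3.17 in P-SSCs, against 8.70 and 8.65 in CD45+ cells (difference -5.75, SE 0.358, adjusted p = 0.000667, and -5.99 for sample 1 alone, adjusted p = 0.000736). Gzma, a protease of cytotoxic granules, read 3.42 and 4.04 in P-SSCs, against 9.18 and 9.08 in CD45+ cells (difference -5.41, SE 0.537, adjusted p = 0.00197, and -5.72 for sample 1 alone, adjusted p = 0.0035). Both fell by over 5 units with both arrays and for sample 1 alone.

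Basophil, mast cell and eosinophil genes fell in 17 of 20 cases, and in 17 for sample 1 alone. Mcpt8, a protease of basophils, read 4.11 and 3.67 in P-SSCs, against 12.06 and 11.89 in CD45+ cells (difference -8.09, SE 0.607, adjusted p = 0.001, and -7.86 for sample 1 alone, adjusted p = 0.00234). This was the largest fall among the genes that passed without overlap. Prg2, the major basic protein of eosinophil granules, read 5.74 and 4.99 in P-SSCs, against 12.43 and 12.80 in CD45+ cells (difference -7.25, SE 0.746, adjusted p = 0.00233, and -6.88 for sample 1 alone, adjusted p = 0.0064). Fcer1a, the IgE-binding chain of the high-affinity receptor, read 2.77 and 2.72 in P-SSCs, against 9.51 and 9.60 in CD45+ cells (difference -6.81, SE 0.312, adjusted p = 0.000637, and -6.78 for sample 1 alone, adjusted p = 0.000661). The P-SSC values of Fcer1a differed by less than 1 unit. Of 15 megakaryocyte genes 2 fell, near the 9.39% of all genes (Nfe2 and Plek, which other blood cells share), and 1 for sample 1 alone. Of 21 erythroid genes 2 rose (Ank1, an anchor of the red cell skeleton, and Rhd, of the Rhesus complex), and 4 for sample 1 alone. Slc4a1, the anion exchanger of the red cell membrane, read 10.27 and 5.15 in P-SSCs, against 4.04 and 4.22 in CD45+ cells (difference 3.58, SE 1.56, adjusted p = 0.152, and 6.14 for sample 1 alone, adjusted p = 0.0161). Alas2, the first enzyme of heme synthesis in red cells, read 7.53 and 4.75 in P-SSCs, against 4.17 and 4.07 in CD45+ cells (difference 2.02, SE 0.822, adjusted p = 0.138, and 3.41 for sample 1 alone, adjusted p = 0.00792). Both were higher on P-SSC sample 1 and passed for it alone, although the sort left out Ter119+ cells. Hba-a1, an alpha globin gene, read 3.56 and 3.81 in P-SSCs, against 3.27 and 3.20 in CD45+ cells (difference 0.45, SE 0.322, adjusted p = 0.295, and 0.33 for sample 1 alone, adjusted p = 0.644). Its 4 values lay within 1 unit of each other. The linear values of the erythroid list summed to 4520 and 1540 in P-SSCs, against 1310 and 1390 in CD45+ cells, and the part of erythroid RNA in other results was not tested.

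Extracellular matrix genes were higher in P-SSCs, with the height carried by sample 1. All 13 small leucine-rich proteoglycans, which bind collagen and set fibril width, lay above the CD45+ values on both P-SSC arrays (39.4% of all genes did), 3 rose with both arrays and 13 for sample 1 alone. Their median difference was 7.75 on sample 1 and 1.95 on sample 2. Their median value on sample 2 was 5.15, beside 5.19 over all genes on that array. In CD45+ cells it was 3.3 and 3.39, beside 5.37 and 5.39 over all genes. Lying above the CD45+ values on both arrays therefore does not by itself set these genes apart. Fmod, fibromodulin, abundant in tendon, read 13.98 and 4.27 in P-SSCs, against 2.37 and 2.48 in CD45+ cells (difference 6.70, SE 2.54, adjusted p = 0.122, and 11.56 for sample 1 alone, adjusted p = 0.000661). This was the largest rise for sample 1 alone among the genes that passed there, yet this probe set did not pass with both arrays, whereas 1 of the other 5 of Fmod did, as higher. Dcn, decorin, read 13.99 and 7.28 in P-SSCs, against 3.90 and 4.44 in CD45+ cells (difference 6.46, SE 1.77, adjusted p = 0.0603, and 9.82 for sample 1 alone, adjusted p = 0.000661). Lum, lumican, read 13.47 and 5.75 in P-SSCs, against 3.63 and 3.98 in CD45+ cells (difference 5.80, SE 2.12, adjusted p = 0.114, and 9.66 for sample 1 alone, adjusted p = 0.00293). These too were led by sample 1, with sample 2 above the CD45+ arrays. Fmod, at 4.27 on sample 2, was below that array's median of 4.94 over all probe sets. Omd, osteomodulin of mineralized matrix, read 9.44 and 6.29 in P-SSCs, against 3.30 and 3.44 in CD45+ cells (difference 4.50, SE 1.12, adjusted p = 0.0464, and 6.08 for sample 1 alone, adjusted p = 0.0125). Epyc, epiphycan of growth cartilage, read 5.78 and 5.15 in P-SSCs, against 2.90 and 2.50 in CD45+ cells (difference 2.76, SE 0.345, adjusted p = 0.00427, and 3.07 for sample 1 alone, adjusted p = 0.00286). Podn, podocan, read 7.41 and 7.60 in P-SSCs, against 5.60 and 5.62 in CD45+ cells (difference 1.89, SE 0.348, adjusted p = 0.018, and 1.80 for sample 1 alone, adjusted p = 0.029). These 3 rose with both arrays, and for Epyc and Podn the P-SSC samples differed by less than 1 unit.

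Of 23 collagen genes 22 lay above the CD45+ values on both arrays and 19 rose for sample 1 alone, at a median difference of 7.06 on sample 1 and 1.5 on sample 2. On sample 2 their median value was 5.42, beside 5.19 over all genes on that array. In CD45+ cells it was 3.8 and 3.57, so lying above on both arrays does not by itself set collagens apart. In the limma fit with both arrays 0 passed, with 17 higher at an unadjusted p under 0.05. That count rests on the probe set read for each gene: another probe set of Col12a1 and another of Col18a1 passed as higher. Col3a1, the fibrillar collagen of soft connective tissue, read 14.08 and 5.57 in P-SSCs, against 2.51 and 2.71 in CD45+ cells (difference 7.21, SE 2.22, adjusted p = 0.0799, and 11.47 for sample 1 alone, adjusted p = 0.000661). Col6a3, a chain of the beaded filaments around cells, read 12.53 and 6.25 in P-SSCs, against 2.90 and 2.89 in CD45+ cells (difference 6.49, SE 1.91, adjusted p = 0.0719, and 9.63 for sample 1 alone, adjusted p = 0.00729). Col12a1, which coats fibrils in periosteum and tendon, read 10.90 and 3.44 in P-SSCs, against 2.54 and 2.15 in CD45+ cells (difference 4.82, SE 2.18, adjusted p = 0.161, and 8.55 for sample 1 alone, adjusted p = 0.0122). On sample 2 these were above the CD45+ arrays by less than 4 units. Col12a1, at 3.44 on sample 2, was below that array's median of 4.94 over all probe sets. Col1a1, a chain of bone collagen, read 12.21 and 4.93 in P-SSCs, against 4.66 and 4.61 in CD45+ cells (difference 3.94, SE 1.9, adjusted p = 0.177, and 7.58 for sample 1 alone, adjusted p = 0.000694). Col1a2, its partner chain, read 14.08 and 6.93 in P-SSCs, against 6.84 and 6.54 in CD45+ cells (difference 3.82, SE 1.86, adjusted p = 0.179, and 7.39 for sample 1 alone, adjusted p = 0.000661). For both, sample 1 was over 7 units above the CD45+ arrays and sample 2 less than 1 above them.

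Collagen-processing genes rose in 5 of 23 cases with both arrays (P4ha3, P3h2, P3h4, Loxl4 and Bmp1) and in 17 for sample 1 alone. P3h4, part of a lysyl hydroxylation complex, read 8.38 and 6.44 in P-SSCs, against 3.28 and 3.70 in CD45+ cells (difference 3.91, SE 0.842, adjusted p = 0.0298, and 4.89 for sample 1 alone, adjusted p = 0.0159). Pcolce, an enhancer of procollagen cleavage, read 12.51 and 4.65 in P-SSCs, against 3.27 and 3.30 in CD45+ cells (difference 5.29, SE 2.09, adjusted p = 0.131, and 9.23 for sample 1 alone, adjusted p = 0.00144). P3h4 was raised on both arrays and Pcolce mainly on sample 1. Of 25 elastic fiber and matrix glycoprotein genes 4 rose (16 for sample 1 alone), and these were Eln, Fbln5, Mfap4 and Ltbp2. Fbln5, which organizes elastic fibers, read 10.21 and 6.70 in P-SSCs, against 2.90 and 3.59 in CD45+ cells (difference 5.21, SE 0.974, adjusted p = 0.0189, and 6.96 for sample 1 alone, adjusted p = 0.000766). Ltbp2, a microfibril protein, read 10.43 and 6.41 in P-SSCs, against 3.45 and 3.66 in CD45+ cells (difference 4.86, SE 1.22, adjusted p = 0.0477, and 6.88 for sample 1 alone, adjusted p = 0.00458). Eln, elastin, read 8.15 and 8.26 in P-SSCs, against 5.75 and 5.77 in CD45+ cells (difference 2.45, SE 0.365, adjusted p = 0.00856, and 2.39 for sample 1 alone, adjusted p = 0.0147). Eln was alike on the P-SSC arrays while the other 2 were higher on sample 1. Of 25 matrix proteases and inhibitors 3 rose (Adamts1, Adamts9 and Timp1) and 2 fell with both arrays, Mmp8 and Mmp9, both known from neutrophils, while 16 rose and 2 fell for sample 1 alone. Adamts1, which cleaves aggrecan and versican, read 10.69 and 6.54 in P-SSCs, against 2.83 and 2.79 in CD45+ cells (difference 5.81, SE 1.27, adjusted p = 0.0315, and 7.88 for sample 1 alone, adjusted p = 0.00374). It had the largest rise among the genes that passed without overlap. Mmp13, the collagenase of bone and cartilage, read 11.86 and 3.75 in P-SSCs, against 2.21 and 2.46 in CD45+ cells (difference 5.47, SE 2.11, adjusted p = 0.126, and 9.52 for sample 1 alone, adjusted p = 0.000661). Its rise was called for sample 1 alone.

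Fibroblast, periosteum and tendon genes had a median difference of 5.76 on sample 1 and 0.99 on sample 2. Of 30, 21 rose for sample 1 alone, 0 passed in the limma fit with both arrays, and 16 were higher at an unadjusted p under 0.05. Other probe sets of Gas1, Loxl1 and Sema3c passed as higher with both arrays, and 1 of Dpp4 as lower. Dpt, dermatopontin, read 12.21 and 6.19 in P-SSCs, against 2.85 and 3.38 in CD45+ cells (difference 6.08, SE 1.83, adjusted p = 0.0759, and 9.09 for sample 1 alone, adjusted p = 0.00777). Fap, a serine protease of activated fibroblasts, read 11.60 and 4.67 in P-SSCs, against 2.84 and 2.84 in CD45+ cells (difference 5.29, SE 1.86, adjusted p = 0.107, and 8.76 for sample 1 alone, adjusted p = 0.00152). Thbs4, a thrombospondin of tendon, read 12.16 and 4.86 in P-SSCs, against 3.51 and 3.67 in CD45+ cells (difference 4.92, SE 2.19, adjusted p = 0.157, and 8.57 for sample 1 alone, adjusted p = 0.0156). These were high on sample 1 and within 4 units of the CD45+ level on sample 2. Prg4, lubricin of synovial and surface cartilage cells, read 13.62 and 2.97 in P-SSCs, against 2.83 and 3.31 in CD45+ cells (difference 5.22, SE 2.79, adjusted p = 0.203, and 10.55 for sample 1 alone, adjusted p = 0.00117). Comp, a matrix protein of cartilage and tendon, read 13.30 and 4.24 in P-SSCs, against 3.49 and 3.43 in CD45+ cells (difference 5.31, SE 2.37, adjusted p = 0.157, and 9.84 for sample 1 alone, adjusted p = 0.000766). Prg4 was at the CD45+ level on sample 2.

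**Figure D3:**
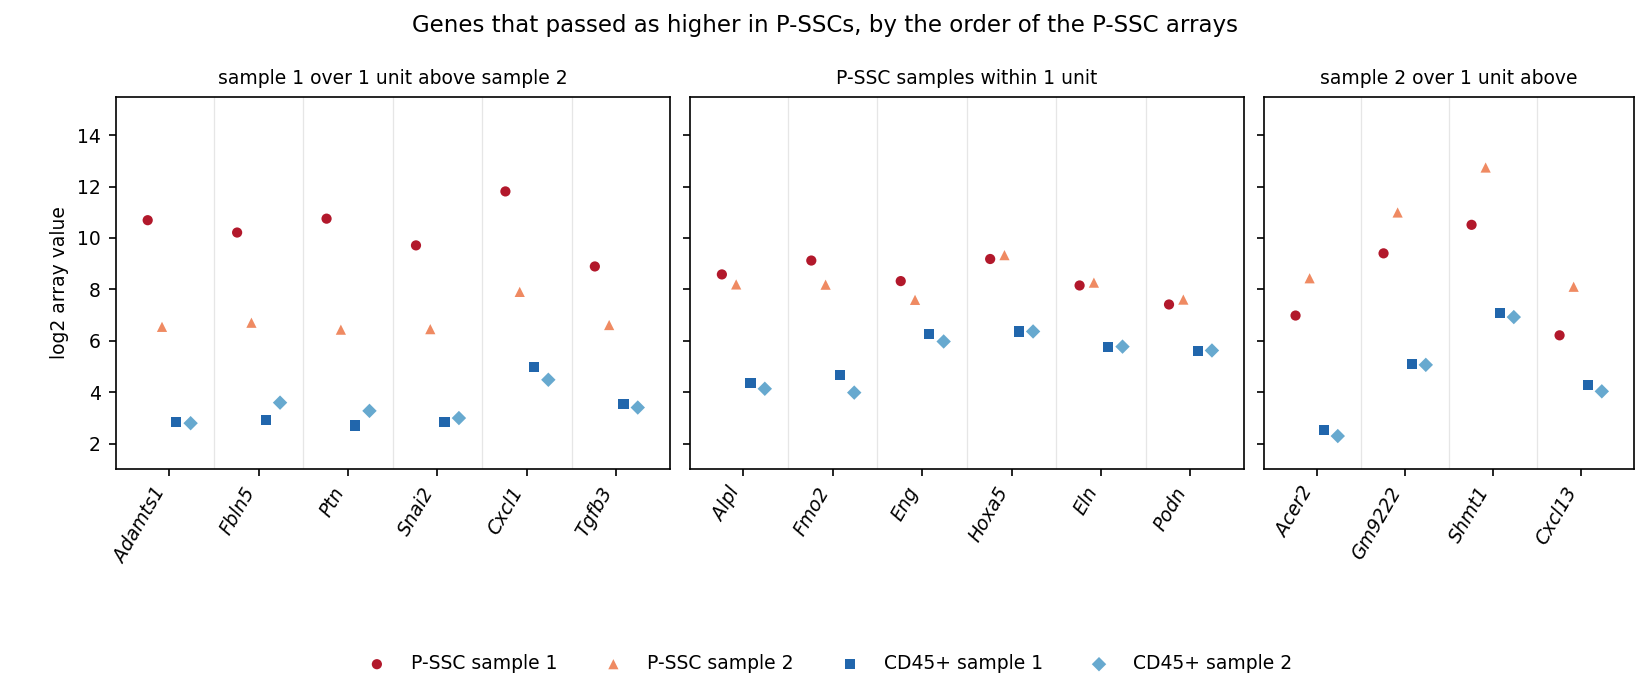
Log2 array values of genes that passed as higher in P-SSCs, 1 point per array. In the left panel P-SSC sample 1 lies over 1 unit above sample 2, in the middle panel the P-SSC samples lie within 1 unit of each other (Hoxa5 at 9.18 and 9.33), and in the right panel sample 2 lies over 1 unit above sample 1 (Acer2 at 6.98 and 8.43).

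Among the probe sets that rose with both arrays, the order of the P-SSC samples differed. Of the 1119, 511 were brighter on sample 1 and 604 on sample 2, of which 152 by more than 1 unit. Snai2, Slug, a repressor of E-cadherin, read 9.71 and 6.45 in P-SSCs, against 2.83 and 2.99 in CD45+ cells (difference 5.17, SE 0.964, adjusted p = 0.0186, and 6.80 for sample 1 alone, adjusted p = 0.00179). Ptn, pleiotrophin, a growth factor of bone and nerve, read 10.75 and 6.43 in P-SSCs, against 2.70 and 3.27 in CD45+ cells (difference 5.60, SE 1.21, adjusted p = 0.0302, and 7.76 for sample 1 alone, adjusted p = 0.00139). Cald1, caldesmon, which binds actin, read 10.77 and 5.80 in P-SSCs, against 2.43 and 2.64 in CD45+ cells (difference 5.75, SE 1.36, adjusted p = 0.04, and 8.23 for sample 1 alone, adjusted p = 0.00111). In these sample 1 was well above sample 2, and sample 2 was still 3 units or more above the CD45+ arrays. Acer2, a ceramidase of the Golgi, read 6.98 and 8.43 in P-SSCs, against 2.53 and 2.29 in CD45+ cells (difference 5.30, SE 1.28, adjusted p = 0.0422, and 4.57 for sample 1 alone, adjusted p = 0.129). Shmt1, the cytosolic serine hydroxymethyltransferase, read 10.51 and 12.74 in P-SSCs, against 7.08 and 6.92 in CD45+ cells (difference 4.62, SE 1.13, adjusted p = 0.0437, and 3.51 for sample 1 alone, adjusted p = 0.14). These were brighter on sample 2 and did not pass for sample 1 alone, and 1 of the other 3 probe sets of Shmt1 passed in the opposite direction.

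Genes used to define skeletal stem cells and the marrow niche rose in 15 of 26 cases for sample 1 alone and in 3 with both arrays (Nes, Ebf3 and Il7), with a median difference of 3.42 on sample 1 and 0.71 on sample 2. Cxcl12, the chemokine that holds blood stem cells in the marrow, read 12.43 and 5.06 in P-SSCs, against 3.48 and 3.80 in CD45+ cells (difference 5.11, SE 1.93, adjusted p = 0.122, and 8.79 for sample 1 alone, adjusted p = 0.000694). Lepr, the leptin receptor of marrow stroma, read 10.34 and 3.18 in P-SSCs, against 2.41 and 2.01 in CD45+ cells (difference 4.55, SE 1.89, adjusted p = 0.142, and 8.14 for sample 1 alone, adjusted p = 0.00109). Grem1, a BMP antagonist that marks osteochondral progenitors, read 9.03 and 4.86 in P-SSCs, against 4.18 and 3.99 in CD45+ cells (difference 2.86, SE 1.15, adjusted p = 0.135, and 4.94 for sample 1 alone, adjusted p = 0.00317). On sample 2 these were less than 2 units above the CD45+ arrays. Prrx1, the limb mesenchyme homeobox gene, read 10.60 and 3.60 in P-SSCs, against 3.03 and 2.89 in CD45+ cells (difference 4.14, SE 2, adjusted p = 0.177, and 7.64 for sample 1 alone, adjusted p = 0.0103). Postn, periostin, named for periosteum, read 12.68 and 5.58 in P-SSCs, against 3.84 and 3.67 in CD45+ cells (difference 5.38, SE 1.92, adjusted p = 0.109, and 8.93 for sample 1 alone, adjusted p = 0.00184). Both followed the same order of arrays, and 1 other probe set each of Lepr and Prrx1 passed as higher with both arrays. Kitl, the ligand of Kit on blood stem cells, read 9.49 and 3.60 in P-SSCs, against 3.32 and 3.32 in CD45+ cells (difference 3.22, SE 1.61, adjusted p = 0.184, and 6.17 for sample 1 alone, adjusted p = 0.0038). Kit, its receptor, read 3.42 and 3.76 in P-SSCs, against 6.61 and 7.05 in CD45+ cells (difference -3.24, SE 0.582, adjusted p = 0.0166, and -3.41 for sample 1 alone, adjusted p = 0.0286). Ligand and receptor thus lay on opposite sides, the ligand mainly on sample 1, although 2 other probe sets of Kitl passed as higher with both arrays. Ebf3, a factor that keeps the niche from turning to bone, read 8.0 and 5.70 in P-SSCs, against 2.63 and 2.37 in CD45+ cells (difference 4.35, SE 0.735, adjusted p = 0.0135, and 5.49 for sample 1 alone, adjusted p = 0.00247). Nes, nestin, the reporter gene of the marrow population in the study, read 6.94 and 7.42 in P-SSCs, against 5.26 and 5.34 in CD45+ cells (difference 1.88, SE 0.436, adjusted p = 0.0375, and 1.64 for sample 1 alone, adjusted p = 0.0851). Nes passed with both arrays but not for sample 1 alone.

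Of 19 osteoblast and osteocyte genes 3 rose (Alpl, Dlx5 and Sp7), and 7 for sample 1 alone. Alpl, the alkaline phosphatase of early osteoblasts, read 8.58 and 8.19 in P-SSCs, against 4.34 and 4.13 in CD45+ cells (difference 4.15, SE 0.461, adjusted p = 0.00283, and 4.34 for sample 1 alone, adjusted p = 0.00499). Dlx5, a homeobox gene of the osteoblast lineage, read 7.28 and 5.82 in P-SSCs, against 3.33 and 2.71 in CD45+ cells (difference 3.53, SE 0.782, adjusted p = 0.0322, and 4.26 for sample 1 alone, adjusted p = 0.0259). Sp7, Osterix, the determinant of osteoblasts, read 6.42 and 6.81 in P-SSCs, against 4.30 and 4.05 in CD45+ cells (difference 2.44, SE 0.417, adjusted p = 0.0141, and 2.24 for sample 1 alone, adjusted p = 0.0287). The P-SSC samples were alike in Alpl and Sp7. Ibsp, bone sialoprotein of mineralizing osteoblasts, read 11.38 and 2.90 in P-SSCs, against 2.97 and 3.01 in CD45+ cells (difference 4.15, SE 2.2, adjusted p = 0.2, and 8.39 for sample 1 alone, adjusted p = 0.000661). Dmp1, an osteocyte gene, read 7.10 and 2.75 in P-SSCs, against 2.46 and 2.44 in CD45+ cells (difference 2.48, SE 1.23, adjusted p = 0.183, and 4.65 for sample 1 alone, adjusted p = 0.0078). Ibsp was high on sample 1 and at the CD45+ level on sample 2. Of 21 chondrocyte genes 4 rose with both arrays (Sox5, Acan, Epyc and Snorc), while 10 rose and 1 fell for sample 1 alone. Sox5, a partner of Sox9 in cartilage, read 7.88 and 5.93 in P-SSCs, against 4.03 and 3.94 in CD45+ cells (difference 2.92, SE 0.704, adjusted p = 0.0421, and 3.90 for sample 1 alone, adjusted p = 0.0108). It was above the CD45+ arrays on each P-SSC array. Of 19 adipocyte genes 1 rose (Zfp423) and 1 fell (Cebpa, also a myeloid factor) with both arrays, while 6 rose and 0 fell for sample 1 alone, where Cebpa had an adjusted p of 0.0537. Zfp423, an early determinant of fat cells, read 5.45 and 4.82 in P-SSCs, against 2.30 and 2.40 in CD45+ cells (difference 2.79, SE 0.485, adjusted p = 0.0148, and 3.10 for sample 1 alone, adjusted p = 0.0161). Adipoq, the adiponectin gene, also made by marrow stroma, read 10.75 and 4.17 in P-SSCs, against 2.97 and 3.11 in CD45+ cells (difference 4.42, SE 1.78, adjusted p = 0.135, and 7.71 for sample 1 alone, adjusted p = 0.00223). Adipoq was led by sample 1. On sample 2 Zfp423 (4.82) and Adipoq (4.17) were both below that array's median of 4.94 over all probe sets.

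The VEGF receptors and the angiopoietin receptor Tek rose. Of 15 genes of the system 5 rose, and 7 for sample 1 alone. Flt1, VEGF receptor 1, read 8.50 and 6.62 in P-SSCs, against 4.36 and 4.56 in CD45+ cells (difference 3.10, SE 0.648, adjusted p = 0.0272, and 4.04 for sample 1 alone, adjusted p = 0.00543). Kdr, VEGF receptor 2, a marker of endothelium and early mesoderm, read 8.55 and 7.36 in P-SSCs, against 5.93 and 5.74 in CD45+ cells (difference 2.12, SE 0.431, adjusted p = 0.025, and 2.71 for sample 1 alone, adjusted p = 0.00407). For both receptors the lower P-SSC value was above the higher CD45+ value. Flt4, VEGF receptor 3, of lymphatic vessels, read 6.08 and 6.99 in P-SSCs, against 4.98 and 4.67 in CD45+ cells (difference 1.71, SE 0.408, adjusted p = 0.041, and 1.25 for sample 1 alone, adjusted p = 0.0775). Tek, the receptor Tie2, read 5.37 and 4.0 in P-SSCs, against 2.50 and 2.38 in CD45+ cells (difference 2.25, SE 0.474, adjusted p = 0.0281, and 2.93 for sample 1 alone, adjusted p = 0.0038). Angpt4, one of its ligands, read 6.66 and 6.04 in P-SSCs, against 4.95 and 4.77 in CD45+ cells (difference 1.48, SE 0.343, adjusted p = 0.0372, and 1.79 for sample 1 alone, adjusted p = 0.0159). Flt4 was brighter on sample 2 and did not pass for sample 1 alone. Tek, at 4.0 on sample 2, was above the CD45+ arrays but below that array's median of 4.94 over all probe sets. Vegfc, a ligand of Flt4, read 8.87 and 4.94 in P-SSCs, against 5.16 and 5.01 in CD45+ cells (difference 1.82, SE 1.1, adjusted p = 0.237, and 3.79 for sample 1 alone, adjusted p = 0.00736). Vegfd, another ligand of Flt4, read 8.06 and 5.77 in P-SSCs, against 3.58 and 3.79 in CD45+ cells (difference 3.23, SE 0.889, adjusted p = 0.0609, and 4.37 for sample 1 alone, adjusted p = 0.022). Both ligands were high on sample 1, 1 other probe set of Vegfd passed as higher with both arrays, and Vegfc was at the CD45+ level on sample 2. Vegfa, the main ligand of Kdr, read 7.15 and 4.65 in P-SSCs, against 5.98 and 6.0 in CD45+ cells (difference -0.09, SE 0.887, adjusted p = 0.938, and 1.16 for sample 1 alone, adjusted p = 0.447). Its P-SSC sample 1 was above and its sample 2 below the CD45+ arrays.

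**Figure D4:**
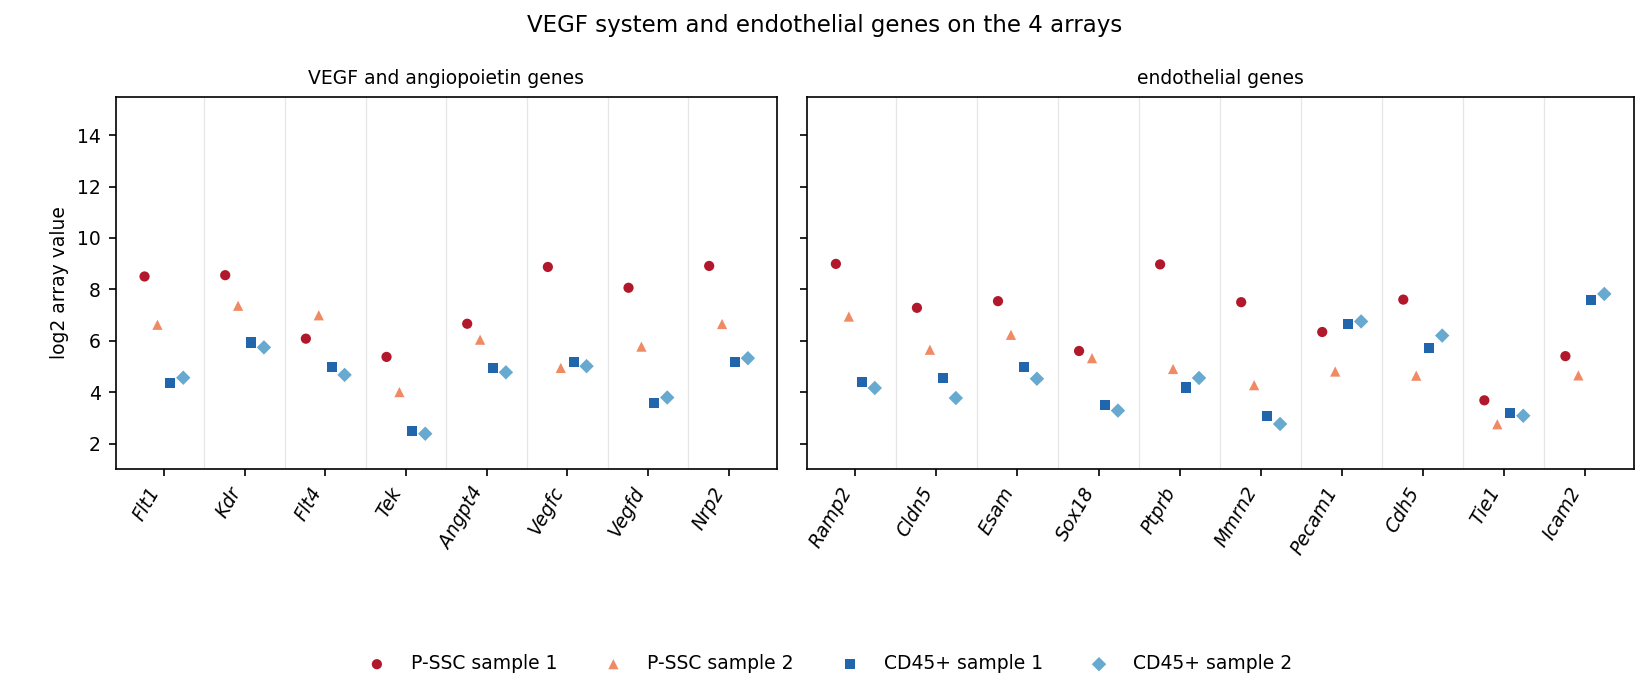
Log2 array values of VEGF and angiopoietin genes and of endothelial genes, 1 point per array. Flt1 and Kdr lie above the CD45+ points on both P-SSC arrays, whereas Tie1 does not separate from them and Icam2 lies below.

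Endothelial markers moved in part with these receptors, although the sort left out CD31+ cells. Of 23 endothelial genes 5 rose (Esam, Cldn5, Ramp2, Robo4 and Sox18) and 1 fell (Icam2), and 12 rose for sample 1 alone. Ramp2, the co-receptor for adrenomedullin, read 8.99 and 6.94 in P-SSCs, against 4.38 and 4.16 in CD45+ cells (difference 3.69, SE 0.761, adjusted p = 0.026, and 4.72 for sample 1 alone, adjusted p = 0.00845). Cldn5, a tight junction protein of vessels, read 7.28 and 5.65 in P-SSCs, against 4.54 and 3.77 in CD45+ cells (difference 2.30, SE 0.559, adjusted p = 0.043, and 3.12 for sample 1 alone, adjusted p = 0.00671). Esam, an endothelial adhesion molecule, read 7.54 and 6.23 in P-SSCs, against 4.99 and 4.52 in CD45+ cells (difference 2.13, SE 0.485, adjusted p = 0.0353, and 2.78 for sample 1 alone, adjusted p = 0.00753). All 3 were above the CD45+ arrays on each P-SSC array. Cdh5, VE-cadherin, read 7.60 and 4.64 in P-SSCs, against 5.72 and 6.20 in CD45+ cells (difference 0.16, SE 0.852, adjusted p = 0.886, and 1.64 for sample 1 alone, adjusted p = 0.0667). Emcn, endomucin, read 5.63 and 2.67 in P-SSCs, against 2.67 and 2.60 in CD45+ cells (difference 1.51, SE 0.857, adjusted p = 0.218, and 2.99 for sample 1 alone, adjusted p = 0.0113). Tie1, the partner of Tek, read 3.68 and 2.75 in P-SSCs, against 3.18 and 3.08 in CD45+ cells (difference 0.08, SE 0.371, adjusted p = 0.87, and 0.54 for sample 1 alone, adjusted p = 0.307). Of these defining markers none passed with both arrays, and Pecam1 did not either. That alone does not show that they did not differ, because the fit pools the spread of all populations. The root mean square SD of a pair of arrays was 1.33 in P-SSCs and 0.998 in BM-SSCs, against 0.168 in CD45+ cells. Icam2, shared by endothelium and leukocytes, read 5.40 and 4.65 in P-SSCs, against 7.58 and 7.82 in CD45+ cells (difference -2.67, SE 0.446, adjusted p = 0.0129, and -2.30 for sample 1 alone, adjusted p = 0.0259). The linear values of the list summed to 3080 and 880 in P-SSCs, against 1330 and 1280 in CD45+ cells, and the part of endothelial RNA in the receptor values was not tested. Of 20 pericyte and smooth muscle genes 2 rose, Tagln and Notch3, and 9 for sample 1 alone. Notch3, the Notch receptor of mural cells, read 7.57 and 6.59 in P-SSCs, against 5.31 and 5.16 in CD45+ cells (difference 1.84, SE 0.398, adjusted p = 0.0302, and 2.33 for sample 1 alone, adjusted p = 0.00722). Rgs5, a pericyte marker, read 9.64 and 4.80 in P-SSCs, against 2.50 and 2.77 in CD45+ cells (difference 4.59, SE 1.4, adjusted p = 0.0779, and 7.01 for sample 1 alone, adjusted p = 0.00406). Rgs5 was high on sample 1, and 1 other of its probe sets passed as higher with both arrays.

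Growth factor systems of the skeleton rose in part. In the PDGF, FGF and IGF system 7 of 31 rose and 1 fell (Met, though its other probe set was not lower), and 21 rose for sample 1 alone. Fgfr2, a receptor of osteoprogenitors, read 9.56 and 7.22 in P-SSCs, against 4.38 and 4.09 in CD45+ cells (difference 4.16, SE 0.886, adjusted p = 0.0289, and 5.33 for sample 1 alone, adjusted p = 0.0106). Igf2, a fetal growth factor, read 8.76 and 7.88 in P-SSCs, against 4.88 and 4.69 in CD45+ cells (difference 3.53, SE 0.518, adjusted p = 0.00803, and 3.97 for sample 1 alone, adjusted p = 0.00794). Egfr, the EGF receptor, read 8.76 and 9.57 in P-SSCs, against 6.73 and 6.48 in CD45+ cells (difference 2.56, SE 0.42, adjusted p = 0.0121, and 2.16 for sample 1 alone, adjusted p = 0.0212). All 3 were raised on both arrays, Egfr more on sample 2. Igfbp5, an IGF-binding protein of bone, read 13.54 and 6.56 in P-SSCs, against 3.33 and 3.33 in CD45+ cells (difference 6.72, SE 1.86, adjusted p = 0.0614, and 10.22 for sample 1 alone, adjusted p = 0.000748). Pdgfrb, the partner receptor of Pdgfra, read 11.67 and 4.18 in P-SSCs, against 3.40 and 3.94 in CD45+ cells (difference 4.26, SE 2.09, adjusted p = 0.18, and 8.0 for sample 1 alone, adjusted p = 0.00666). Both were led by sample 1. In the Wnt system 6 of 33 rose and 11 for sample 1 alone. Sfrp4, a secreted Wnt antagonist of bone, read 10.96 and 7.26 in P-SSCs, against 5.01 and 4.73 in CD45+ cells (difference 4.24, SE 1.03, adjusted p = 0.0433, and 6.09 for sample 1 alone, adjusted p = 0.00137). Fzd2, a Wnt receptor, read 6.55 and 6.43 in P-SSCs, against 3.62 and 3.66 in CD45+ cells (difference 2.85, SE 0.296, adjusted p = 0.00236, and 2.91 for sample 1 alone, adjusted p = 0.00284). Wif1, a secreted inhibitor, read 9.32 and 3.60 in P-SSCs, against 2.14 and 1.89 in CD45+ cells (difference 4.45, SE 1.57, adjusted p = 0.107, and 7.31 for sample 1 alone, adjusted p = 0.0025). Fzd2 was alike on the P-SSC arrays and Wif1 was led by sample 1.

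In the BMP and TGF-beta system 3 of 29 rose (Chrd, Fst and Tgfb3), and 16 for sample 1 alone. Tgfb3, a TGF-beta ligand, read 8.89 and 6.61 in P-SSCs, against 3.55 and 3.40 in CD45+ cells (difference 4.27, SE 0.915, adjusted p = 0.0293, and 5.41 for sample 1 alone, adjusted p = 0.0131). Fst, follistatin, an antagonist of activins, read 8.08 and 6.19 in P-SSCs, against 3.98 and 3.87 in CD45+ cells (difference 3.21, SE 0.633, adjusted p = 0.0227, and 4.15 for sample 1 alone, adjusted p = 0.00398). Bmp4, a bone morphogenetic protein, read 8.57 and 5.43 in P-SSCs, against 3.81 and 3.68 in CD45+ cells (difference 3.25, SE 0.931, adjusted p = 0.0675, and 4.82 for sample 1 alone, adjusted p = 0.00433). Bmp4 passed for sample 1 alone. Of 21 Notch and Hedgehog genes 3 rose (Notch3, Gli3 and Hhip) and 2 fell (Notch1 and Hes6) with both arrays, while 5 rose and 0 fell for sample 1 alone. Hhip, a decoy for Hedgehog, read 7.22 and 7.37 in P-SSCs, against 3.90 and 4.22 in CD45+ cells (difference 3.24, SE 0.689, adjusted p = 0.0288, and 3.16 for sample 1 alone, adjusted p = 0.0665). Notch1, a receptor that lymphoid cells use, read 7.95 and 6.73 in P-SSCs, against 9.53 and 9.41 in CD45+ cells (difference -2.13, SE 0.482, adjusted p = 0.0344, and -1.52 for sample 1 alone, adjusted p = 0.0639). Hhip was alike on the P-SSC arrays, and the 2 Notch and Hedgehog genes that fell were a share near the 9.39% of all genes. Of 26 guidance molecules 8 rose and 2 fell (9 and 2 for sample 1 alone). Sema3a, which repels axons and protects bone, read 7.62 and 6.01 in P-SSCs, against 3.72 and 3.81 in CD45+ cells (difference 3.05, SE 0.534, adjusted p = 0.0152, and 3.85 for sample 1 alone, adjusted p = 0.00251). Sema4a, a semaphorin of immune cells, read 6.50 and 5.65 in P-SSCs, against 10.43 and 10.23 in CD45+ cells (difference -4.26, SE 0.537, adjusted p = 0.00444, and -3.83 for sample 1 alone, adjusted p = 0.0109). Sema4d, another of immune cells, read 4.52 and 6.03 in P-SSCs, against 8.66 and 8.46 in CD45+ cells (difference -3.29, SE 0.621, adjusted p = 0.0193, and -4.05 for sample 1 alone, adjusted p = 0.00881). The secreted semaphorin rose and the 2 semaphorins of immune cells fell, although neither of the other 2 probe sets of Sema4d was lower.

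Of 30 mesenchymal transcription factors 9 rose, beside 3.09% of all genes, 17 rose for sample 1 alone, and 26 lay above the CD45+ values on both arrays. Nfib, a nuclear factor I protein, read 9.01 and 5.50 in P-SSCs, against 2.28 and 2.22 in CD45+ cells (difference 5.01, SE 1.05, adjusted p = 0.0275, and 6.76 for sample 1 alone, adjusted p = 0.00267). Foxc1, needed for the marrow niche, read 9.20 and 4.45 in P-SSCs, against 2.92 and 2.92 in CD45+ cells (difference 3.90, SE 1.49, adjusted p = 0.123, and 6.28 for sample 1 alone, adjusted p = 0.0159). Twist1, a factor of early mesenchyme, read 8.37 and 3.90 in P-SSCs, against 2.59 and 2.52 in CD45+ cells (difference 3.58, SE 1.36, adjusted p = 0.123, and 5.81 for sample 1 alone, adjusted p = 0.0125). Foxc1 and Twist1 passed for sample 1 alone. Over all genes 39.4% lay above the CD45+ values on both arrays. The list was dim on P-SSC sample 2, with a median of 5.06 beside 5.19 over all genes there. In CD45+ cells its medians were 3.36 and 3.35, beside 5.37 and 5.39 over all genes. The count of 26 therefore does not set these genes apart. Of 24 Hox genes, which record position along the body axis, 5 rose (Hoxa5, Hoxb6, Hoxc4, Hoxc8 and Hoxd10), 7 rose for sample 1 alone, and 21 lay above the CD45+ values on both arrays. Hoxc8 read 7.43 and 6.17 in P-SSCs, against 2.81 and 2.56 in CD45+ cells (difference 4.11, SE 0.693, adjusted p = 0.0134, and 4.74 for sample 1 alone, adjusted p = 0.0123). Hoxa5 read 9.18 and 9.33 in P-SSCs, against 6.36 and 6.36 in CD45+ cells (difference 2.90, SE 0.3, adjusted p = 0.00236, and 2.82 for sample 1 alone, adjusted p = 0.00329). Hoxb6 read 4.65 and 5.73 in P-SSCs, against 2.61 and 3.04 in CD45+ cells (difference 2.36, SE 0.449, adjusted p = 0.0197, and 1.82 for sample 1 alone, adjusted p = 0.0309). The median difference of the Hox list was 1.42 on sample 1 and 1.13 on sample 2, so it differed less between the P-SSC arrays than those of the matrix lists. The median Hox value was 5.77 and 5.48 in P-SSCs, beside 5.43 and 5.19 over all genes, and 4.11 and 4.06 in CD45+ cells. The list was thus dim on both P-SSC arrays. Neither that small gap nor the count of 21 therefore shows that the P-SSC arrays agreed on Hox genes.

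Chemokine genes moved both ways, with 4 of 30 higher (Ccl11, Cxcl1, Cxcl13 and Ackr4) and 13 lower with both arrays, and 8 higher and 14 lower for sample 1 alone. Cxcl13 and Ackr4 (adjusted p = 0.0722) did not pass for sample 1 alone. Cxcl1, a neutrophil attractant, read 11.81 and 7.90 in P-SSCs, against 4.98 and 4.48 in CD45+ cells (difference 5.12, SE 1.06, adjusted p = 0.0261, and 7.08 for sample 1 alone, adjusted p = 0.000661). Ccl6, a chemokine of myeloid cells, read 5.35 and 5.20 in P-SSCs, against 12.53 and 12.35 in CD45+ cells (difference -7.17, SE 0.495, adjusted p = 0.000763, and -7.09 for sample 1 alone, adjusted p = 0.00173). Cxcr4, the receptor for Cxcl12, read 4.90 and 5.11 in P-SSCs, against 9.79 and 10.45 in CD45+ cells (difference -5.12, SE 0.461, adjusted p = 0.00148, and -5.22 for sample 1 alone, adjusted p = 0.00314). Cxcl1 lay above and the others below the CD45+ arrays on each P-SSC array. Cxcl13, a B cell attractant, read 6.21 and 8.10 in P-SSCs, against 4.29 and 4.03 in CD45+ cells (difference 2.99, SE 0.729, adjusted p = 0.0434, and 2.05 for sample 1 alone, adjusted p = 0.112). It was brighter on sample 2. Of 26 interleukin genes 1 rose (Il1r1) and 8 fell with both arrays, while 5 rose and 8 fell for sample 1 alone. Il1r1, the signaling receptor for interleukin 1, read 8.65 and 7.15 in P-SSCs, against 4.90 and 5.21 in CD45+ cells (difference 2.84, SE 0.662, adjusted p = 0.038, and 3.59 for sample 1 alone, adjusted p = 0.0192). Il1r2, the decoy receptor, read 5.55 and 5.79 in P-SSCs, against 8.09 and 8.71 in CD45+ cells (difference -2.73, SE 0.502, adjusted p = 0.018, and -2.85 for sample 1 alone, adjusted p = 0.03). The receptor and its decoy moved in opposite directions. The 1 interleukin gene that rose was a share near the 3.09% of all genes, and the 8 that fell stood beside 9.39%. Of 18 complement genes 3 rose (Cfb, Masp1 and Cd59a) and 2 fell (C5ar1 and Cr2) with both arrays, while 7 rose and 2 fell for sample 1 alone. Serping1, the inhibitor of C1, read 12.18 and 5.35 in P-SSCs, against 2.92 and 3.16 in CD45+ cells (difference 5.73, SE 1.77, adjusted p = 0.0809, and 9.15 for sample 1 alone, adjusted p = 0.000661). It was high on sample 1. Of 24 Toll-like receptor and inflammasome genes 9 fell, and 11 for sample 1 alone.

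The P-SSC mice had received pIpC, and the labels do not give the treatment of the CD45+ mice. Of 32 interferon response genes 9 fell, beside 9.39% of all genes, and the others did not pass with both arrays. The median difference was -1.15 on sample 1 and -2.22 on sample 2, beside -0.86 and -5.07 for the ribosomal genes. The part of pIpC in these values was not tested. The core of the interferon-stimulated response element, GAAA and again GAAA with any 2 bases between them, was found on either strand in 15 of the 24 list promoters with an entry, against 3.99% of all genes. That of Bst2 (tetherin, which holds budding virus at the membrane) is shown, from chr8:71537423-71537722, minus strand, because the gene fell and holds 2 overlapping matches, which are in capitals.
Bst2: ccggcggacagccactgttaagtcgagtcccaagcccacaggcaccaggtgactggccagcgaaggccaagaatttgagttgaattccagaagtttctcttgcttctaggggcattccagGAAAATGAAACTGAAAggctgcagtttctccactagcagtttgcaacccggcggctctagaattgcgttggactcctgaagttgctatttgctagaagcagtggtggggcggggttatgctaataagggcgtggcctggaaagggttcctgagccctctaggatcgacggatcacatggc
Bst2 read 7.60 and 5.16 in P-SSCs, against 9.85 and 9.82 in CD45+ cells (difference -3.45, SE 0.754, adjusted p = 0.0311, and -2.23 for sample 1 alone, adjusted p = 0.0345). Cmpk2, a mitochondrial nucleotide kinase, read 4.82 and 4.16 in P-SSCs, against 7.97 and 7.88 in CD45+ cells (difference -3.44, SE 0.502, adjusted p = 0.0079, and -3.11 for sample 1 alone, adjusted p = 0.0183). Both were lower on each P-SSC array. Of the 15 genes with this core 3 fell (Bst2, Oas1a and Ifih1). Ifitm3, which blocks the entry of viruses, read 11.26 and 3.21 in P-SSCs, against 11.28 and 11.44 in CD45+ cells (difference -4.13, SE 2.08, adjusted p = 0.187, and -0.10 for sample 1 alone, adjusted p = 0.91). Iigp1, an immunity-related GTPase, read 9.01 and 5.92 in P-SSCs, against 5.14 and 5.31 in CD45+ cells (difference 2.24, SE 0.928, adjusted p = 0.141, and 3.79 for sample 1 alone, adjusted p = 0.0107). Ifitm3 was at the CD45+ level on sample 1 and low on sample 2, and Iigp1 was the 1 gene of the list that rose for sample 1 alone.

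Cell cycle genes were lower in P-SSCs: 21 of 32 fell (17 for sample 1 alone), with a median difference of -2.35 on sample 1 and -3.67 on sample 2. The ribosomal genes had medians of -0.86 on sample 1 and -5.07 on sample 2. The fall on sample 2 was thus not particular to cell cycle genes. Kif11, a motor of the spindle, read 4.65 and 3.48 in P-SSCs, against 8.75 and 8.53 in CD45+ cells (difference -4.57, SE 0.581, adjusted p = 0.00453, and -3.99 for sample 1 alone, adjusted p = 0.0101). Bub1, a checkpoint kinase, read 3.95 and 4.34 in P-SSCs, against 8.36 and 8.40 in CD45+ cells (difference -4.23, SE 0.494, adjusted p = 0.00332, and -4.43 for sample 1 alone, adjusted p = 0.00626). Top2a, the topoisomerase of dividing cells, read 7.29 and 4.28 in P-SSCs, against 10.83 and 10.78 in CD45+ cells (difference -5.02, SE 0.921, adjusted p = 0.0179, and -3.51 for sample 1 alone, adjusted p = 0.0159). All P-SSC values were below all CD45+ values, and Top2a was 3 units brighter on sample 1 than on sample 2. Neither of the other 2 probe sets of Top2a was lower in P-SSCs. Pcna, the clamp of DNA replication, read 10.20 and 4.65 in P-SSCs, against 11.08 and 11.10 in CD45+ cells (difference -3.66, SE 1.53, adjusted p = 0.143, and -0.89 for sample 1 alone, adjusted p = 0.538). On sample 1 it lay within 1 unit of the CD45+ arrays. Of 21 cell cycle inhibitors and quiescence genes 2 fell with both arrays (Cdkn2d and Cdkn2c, the last with a difference of 0.09 after quantile normalization), while 5 rose for sample 1 alone. Gas1, a growth arrest protein and Hedgehog co-receptor, read 12.51 and 7.70 in P-SSCs, against 5.35 and 5.12 in CD45+ cells (difference 4.87, SE 1.4, adjusted p = 0.0685, and 7.28 for sample 1 alone, adjusted p = 0.00406). Cdkn1a, the inhibitor p21, read 10.96 and 7.84 in P-SSCs, against 7.18 and 7.03 in CD45+ cells (difference 2.29, SE 0.978, adjusted p = 0.147, and 3.85 for sample 1 alone, adjusted p = 0.018). Cdkn1c, the inhibitor p57, read 8.73 and 4.49 in P-SSCs, against 4.17 and 4.32 in CD45+ cells (difference 2.37, SE 1.22, adjusted p = 0.192, and 4.48 for sample 1 alone, adjusted p = 0.0105). These rises were called for sample 1 alone, although another probe set of Gas1 passed as higher with both arrays. The 2 cell cycle inhibitor and quiescence genes that fell were a share near the 9.39% of all genes.

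Immediate early and stress genes differed more between the P-SSC arrays than between the populations. Of 22, 6 rose for sample 1 alone, 0 passed in the limma fit with both arrays, and 1 was higher at an unadjusted p under 0.05, with medians of 1.08 on sample 1 and -3.97 on sample 2. Hspa1a, an inducible heat shock protein, read 13.03 and 4.44 in P-SSCs, against 7.61 and 9.23 in CD45+ cells (difference 0.32, SE 2.3, adjusted p = 0.916, and 4.61 for sample 1 alone, adjusted p = 0.0195). Egr1, an immediate early factor, read 13.74 and 8.14 in P-SSCs, against 10.65 and 10.61 in CD45+ cells (difference 0.32, SE 1.5, adjusted p = 0.871, and 3.12 for sample 1 alone, adjusted p = 0.0132). Socs3, a brake on cytokine signaling, read 12.79 and 7.12 in P-SSCs, against 8.88 and 8.65 in CD45+ cells (difference 1.19, SE 1.53, adjusted p = 0.54, and 4.02 for sample 1 alone, adjusted p = 0.0102). Each was above the CD45+ arrays on sample 1 and below them on sample 2. Il6, interleukin 6, read 9.74 and 3.74 in P-SSCs, against 7.0 and 6.77 in CD45+ cells (difference -0.15, SE 1.56, adjusted p = 0.943, and 2.85 for sample 1 alone, adjusted p = 0.0032). Jun, a subunit of AP-1, read 12.28 and 4.64 in P-SSCs, against 11.33 and 11.61 in CD45+ cells (difference -3.01, SE 2.03, adjusted p = 0.275, and 0.81 for sample 1 alone, adjusted p = 0.561). Il6 had the same order, and Jun was near the CD45+ level on sample 1. The list median of -3.97 on sample 2 stood beside -5.07 for the ribosomal and -4.97 for the housekeeping genes on that array. The fall on sample 2 was thus not particular to immediate early and stress genes.

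Of 11 flavin monooxygenase and retinal dehydrogenase genes 2 rose (Fmo1 and Fmo2) and 1 fell (Fmo5) with both arrays, while 7 rose and 1 fell for sample 1 alone. Fmo2, a flavin monooxygenase, read 9.12 and 8.18 in P-SSCs, against 4.67 and 3.98 in CD45+ cells (difference 4.33, SE 0.458, adjusted p = 0.00244, and 4.79 for sample 1 alone, adjusted p = 0.00227). It was raised on both arrays. Of 25 skeletal muscle genes 2 fell (Tnnt1 and Ryr1, though the other probe set of Ryr1 was not lower), a share near the 9.39% of all genes, with 1 higher and 2 lower for sample 1 alone, and the linear values of the list summed to 1240 and 1160 in P-SSCs, against 584 and 589 in CD45+ cells. Ckm, muscle creatine kinase, read 5.48 and 7.0 in P-SSCs, against 4.51 and 4.96 in CD45+ cells (difference 1.51, SE 0.735, adjusted p = 0.179, and 0.74 for sample 1 alone, adjusted p = 0.657). Of 18 neural and Schwann cell genes 2 rose (S100b and Nes) and 2 fell (Cnp and Erbb3, though the other probe set of Erbb3 was not lower), beside 3.09% and 9.39% of all genes, with 2 and 2 for sample 1 alone. S100b, a calcium-binding protein of glia and cartilage, read 7.90 and 6.92 in P-SSCs, against 4.35 and 4.32 in CD45+ cells (difference 3.08, SE 0.393, adjusted p = 0.00459, and 3.56 for sample 1 alone, adjusted p = 0.00189). Sox10, the defining factor of Schwann cells, read 6.10 and 7.46 in P-SSCs, against 5.39 and 5.12 in CD45+ cells (difference 1.52, SE 0.585, adjusted p = 0.125, and 0.84 for sample 1 alone, adjusted p = 0.452). Ckm and Sox10 were brighter on P-SSC sample 2 than on sample 1 and did not pass. Of 23 glycolysis and hypoxia genes 0 passed in the limma fit with both arrays, with 1 higher and 4 lower at an unadjusted p under 0.05, 1 rose for sample 1 alone, and the medians were -0.04 on sample 1 and -3.0 on sample 2. Another probe set of Pdk1 passed as lower. Epas1, HIF-2 alpha, high in stroma and endothelium, read 11.01 and 4.65 in P-SSCs, against 3.68 and 3.88 in CD45+ cells (difference 4.04, SE 1.68, adjusted p = 0.141, and 7.22 for sample 1 alone, adjusted p = 0.000853). Of 23 oxidative phosphorylation genes 4 fell (Ndufa4, Ndufb8, Uqcrfs1 and Cycs, though the other probe set of Ndufb8 was not lower) and 3 for sample 1 alone, with medians of -1.28 on sample 1 and -4.30 on sample 2, beside -0.86 on sample 1 and -5.07 on sample 2 for the ribosomal genes.

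**Figure D5:**
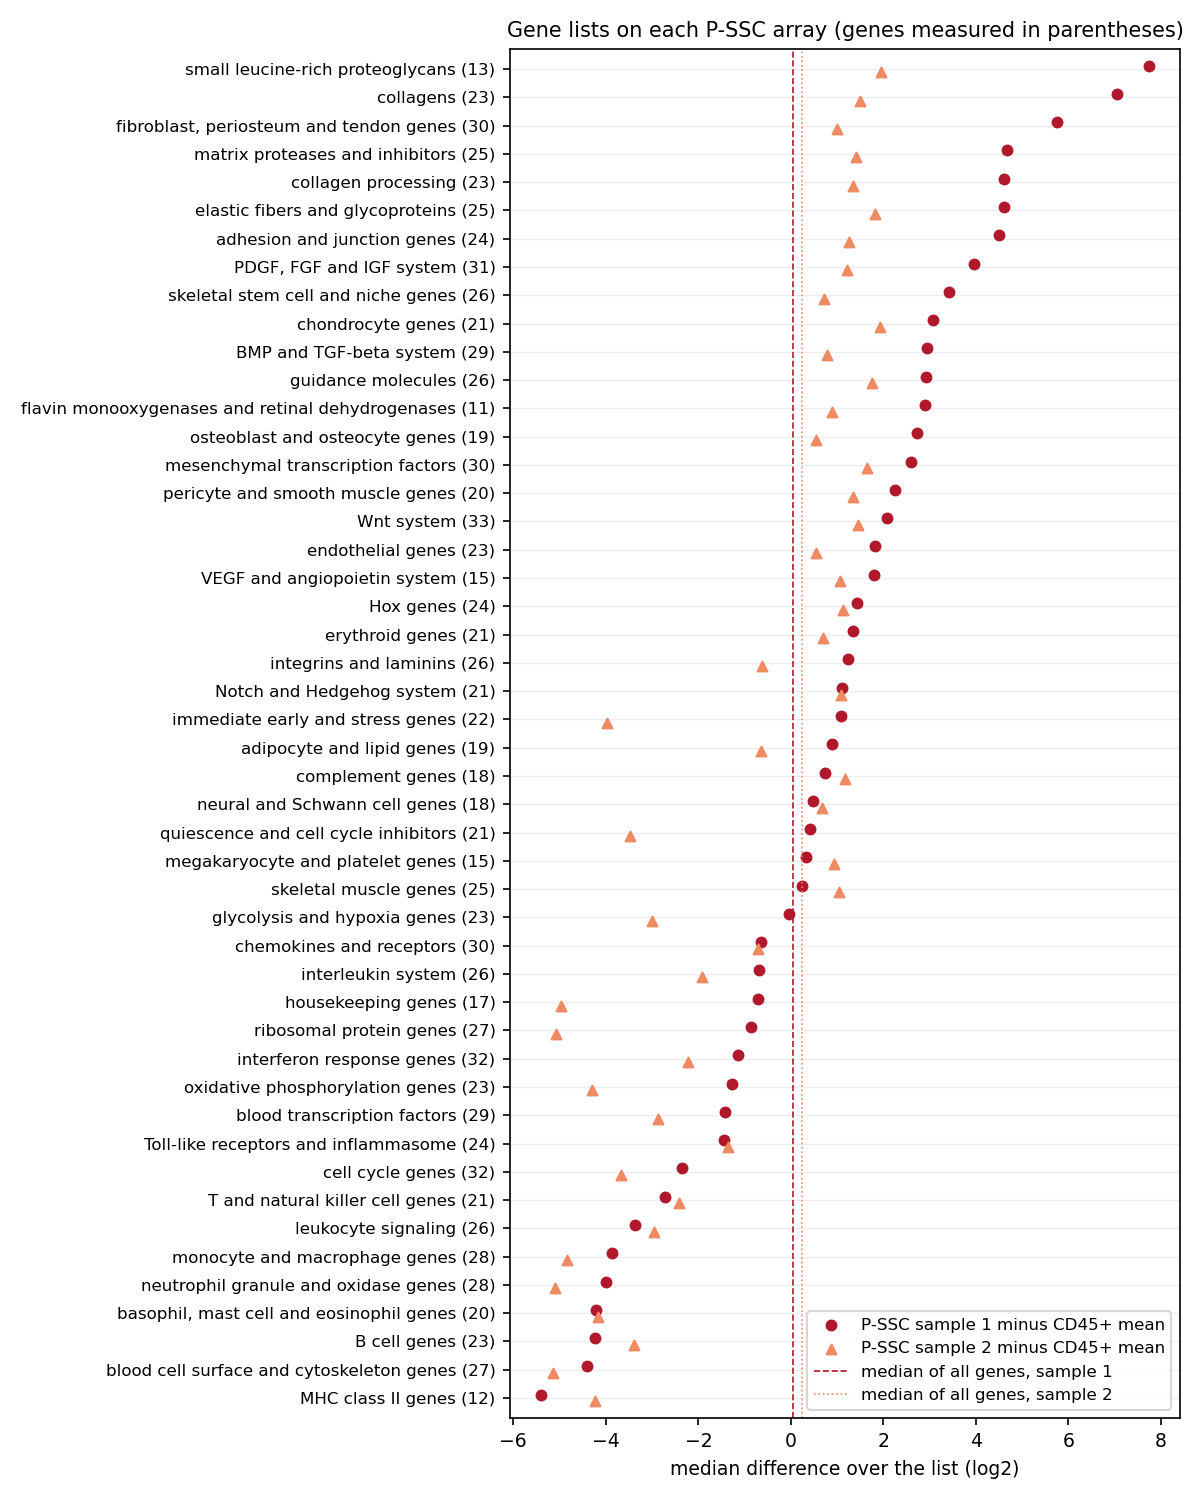
Median difference from the CD45+ mean over each gene list, in log2 units, on P-SSC sample 1 (circles) and P-SSC sample 2 (triangles), with lines at the medians of all genes. The blood surface, neutrophil, monocyte, B, T and natural killer, basophil and MHC class II lists lie at or left of -2.42 on both arrays, matrix lists lie right of 4 on sample 1 and between 1 and 2 on sample 2, and the ribosomal list lies at -5.07 on sample 2 and -0.86 on sample 1.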

How the data were processed

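RNA of sorted cells was amplified and hybridised to Affymetrix mouse arrays. The authors imported the scans into Partek GS and R and applied RMA (robust multichip average), and the deposited values are log2 signals per probe set. Tool versions are not given in the sources used here. All 11 arrays entered a limma fit (R 4.3.3, limma 3.58.1) with a mean for each population, so that all populations share the estimate of the spread, and the contrast was P-SSCs minus CD45+ cells. P-values were adjusted by Benjamini-Hochberg over 45037 probe sets, after 64 control probe sets were left out, with a threshold of 0.05. "Rose" and "fell" are used of genes that passed. Values for sample 1 alone come from the fit without P-SSC sample 2, where the lone array is assumed to vary like the other populations. Symbols came from the platform annotation: of the probe sets tested 34945 had 1 symbol, 932 several and 9160 none, and a gene was read from its probe set with the highest mean, giving 18193 genes. The fit was also run on simulated arrays, in which all populations had the same spread for a given probe set. In the data the root mean square SD of a pair was 1.33 in P-SSCs and 0.168 in CD45+ cells. That run therefore does not show how the fit behaves with these arrays.

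Named genes were those of the sort and the study's markers, the 20 largest differences per direction among genes that passed without overlap, the 20 largest per direction for sample 1 alone, and up to 8 members of each list by size of difference (all members of lists of up to 15). These genes were named outside that rule, after their values were seen: Ackr4, Adamts9, Bmp1, Camp, Ccl11, Ccn4, Ccn5, Cd59a, Cdh5, Cdkn1a, Cdkn1c, Cdkn2c, Chrd, Col18a1, Col1a1, Col1a2, Coro1a, Cxcl13, Cycs, Dpp4, Egfr, Egr1, Elane, Eln, Emcn, Hba-a1, Hoxd10, Hspa1a, Ifih1, Igf2, Iigp1, Il6, Il7, Itga9, Itgb2l, Kit, Kitl, Lamc1, Loxl4, Met, Mfap4, Mpo, Ngp, Oas1a, P3h2, P4ha3, Pdk1, Robo4, S100a8, S100a9, Snorc, Socs3, Sox9 and Timp1. The members and lists were chosen with earlier results of these data known. Promoters and their coordinates are from RefSeq (GRCm38.p6) and were matched by symbol. Alternatives were leaving out each array, other normalizations, variance models, array weights, a filter on dim probe sets, a block for the replicate number, a single probe set for each gene, and other thresholds. The number of arrays limits the precision.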

Additional observations from a re-analysis of the deposited data

Results flagged for a closer look

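A spike-in control outside the tested probe sets was far brighter on P-SSC sample 2 than on the control population. The 3′ probe set of bioB, a bacterial transcript added at hybridisation, read 9.13 on P-SSC sample 1 and 13.76 on P-SSC sample 2, against 8.95 and 8.47 on the CD45+ arrays. On the same arrays the Actb control probe set read 13.33 and 7.81 in P-SSCs, against 14.25 and 14.20 in CD45+ cells.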

How the results depend on the processing

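Of the 79 genes named here that rose and the 69 that fell, 68 and 62 still passed in the same direction with P-SSC sample 1 alone, 57 and 52 after quantile normalization, 41 and 68 after median centring, 5 and 28 without CD45+ sample 1, and 4 and 25 without CD45+ sample 2. Leaving out 1 array at a time gave 440 to 25623 probe sets in all, 13 to 14796 higher and 427 to 10827 lower. With sample 2 of the P-SSCs and of the BM-SSCs left out 21910 passed (10187 higher, 11723 lower), after quantile normalization 2862 (783 higher, 2079 lower), with array weights 587 (56 higher, 531 lower), with 1 probe set per gene 2390 (599 higher, 1791 lower), at an unadjusted p under 0.05 15086 (6763 higher, 8323 lower) and at an adjusted p under 0.01 1071 (113 higher, 958 lower). The array weights were 4.84 for each CD45+ array and 0.0896 for each P-SSC array. With 2 arrays around a population mean both get the same weight by construction, so the weights do not compare P-SSC sample 1 with sample 2. A limma fit to the 4 arrays alone passed 0, higher 0 and lower 0, with 8678 at an unadjusted p under 0.05 and a smallest adjusted p of 0.0959. Fewer samples and fewer genes tested account for part of these changes by construction, and the cause of the rest was not tested. Median centring gave 768 higher and 4395 lower, a share of lower calls over 10 percentage points above that with the values as deposited (1119 and 3281).

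Whether the sample numbers pair the arrays could not be decided. The deviations of same-numbered P-SSC and CD45+ arrays from their population means correlated at -0.0914. With 2 arrays per population the deviations of sample 2 mirror those of sample 1, so this was a single comparison. With the replicate number as a block 4368 probe sets passed, with 75 of the 79 and 68 of the 69 named genes.

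Differences changed sign for these genes. With 1 array left out at a time they ran over Cd80 -0.11 to 0.00, Cdh5 -1.32 to 1.64, Cebpd -5.22 to 0.90, Dpp4 -1.60 to 0.13, Egr1 -2.48 to 3.12, Hspa1a -3.98 to 4.61, Ibsp -0.09 to 8.39, Il6 -3.15 to 2.85, Itgav -4.54 to 1.53, Jun -6.83 to 0.81, Prg4 -0.10 to 10.55, Socs3 -1.64 to 4.02, Tie1 -0.39 to 0.54, Vegfa -1.34 to 1.16, Vegfc -0.15 to 3.79. With sample 2 of both stem cell populations left out they were Cebpd 0.90, Il6 2.85, Itgav 1.53, Jun 0.81, Vegfa 1.16. After quantile normalization they were Cdkn2c 0.09, Dpp4 0.15, Hba-a1 -0.14, Pdk1 0.04, Tie1 -0.40, and after median centring Cdh5 -0.18, Egr1 -0.02, Hspa1a -0.02, Tie1 -0.26. Of these Cdkn2c alone had passed, and the cause was not tested. The 2 arrays per population, and the narrow range of P-SSC sample 2, limit what could be detected.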

Other observations

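Cell adhesion genes moved both ways. Of 26 integrin and laminin genes 3 rose (Itga9, Lama2 and Lamc1) and 5 fell, which were the leukocyte chains Itga4, Itgal, Itgam, Itgb2 and Itgb7, while 7 rose and 7 fell for sample 1 alone. Itga9, an integrin chain that binds tenascin, read 5.70 and 5.57 in P-SSCs, against 4.24 and 4.03 in CD45+ cells (difference 1.51, SE 0.315, adjusted p = 0.0272, and 1.57 for sample 1 alone, adjusted p = 0.0283). Lama2, a laminin chain of basement membranes, read 9.03 and 6.63 in P-SSCs, against 4.13 and 4.11 in CD45+ cells (difference 3.71, SE 0.823, adjusted p = 0.0326, and 4.91 for sample 1 alone, adjusted p = 0.00713). Itgb7, a homing integrin of lymphocytes, read 5.38 and 6.38 in P-SSCs, against 9.71 and 9.19 in CD45+ cells (difference -3.56, SE 0.436, adjusted p = 0.0039, and -4.06 for sample 1 alone, adjusted p = 0.0025). Itga9 and Lama2 lay above and Itgb7 below the CD45+ arrays on each P-SSC array. Of 24 adhesion and junction genes 3 rose (Cdh2, Ccn4 and Ccn5), and 16 for sample 1 alone. Cdh2, N-cadherin, read 7.86 and 5.87 in P-SSCs, against 2.69 and 2.37 in CD45+ cells (difference 4.33, SE 0.794, adjusted p = 0.0178, and 5.33 for sample 1 alone, adjusted p = 0.00813). Ccn4, a matricellular protein of bone, read 8.22 and 6.84 in P-SSCs, against 4.54 and 4.22 in CD45+ cells (difference 3.15, SE 0.764, adjusted p = 0.0431, and 3.84 for sample 1 alone, adjusted p = 0.0347). Both were above the CD45+ arrays on each P-SSC array.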
